A study of Mus musculus with 3 samples.

Results

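The 60 genes described here encode membrane transporters of the Slc1, Slc3, Slc6, Slc7, Slc36, Slc38 and Slc43 families, most of which carry amino acids. They were taken by gene symbol alone out of 47480 symbols measured in 3 untreated FVB-MMTV-Neu mammary tumours. The name rule also brings in members with other cargo: Slc6a2, Slc6a3 and Slc6a4 carry monoamines, Slc6a8 carries creatine, Slc6a6 taurine, and Slc43a3 nucleobases. It leaves out Slc6a20a and Slc6a20b.

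In MMTV-Neu mice a Neu (Erbb2) transgene is expressed from the promoter of the mouse mammary tumour virus, so that mammary epithelium is the main site of transformation. By the protocol, tumours were placed into the mammary site of hosts of the same strain, reached 5 mm across and then grew for 7 more days with no treatment, although the design text speaks of tumours from the transgenic mice themselves. All 3 tumours form 1 group, there was 1 library for each, and the labels do not tell whether they came from separate donors. No condition is compared. Differences between tumours have no replicate check and no test, and "apart" means a fold difference of stated size.

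Total estimated counts were 47449153, 11388769 and 17147394 in tumours 1, 2 and 3. Tumour 1 was sequenced in lane 1 and the others in lane 5, so a difference of tumour 1 cannot be told apart from lane. All 8 luminal epithelial markers passed the filter in these libraries. They summed to 2082, 1821 and 2707 CPM (counts per 1000000 of scaled library totals) in tumours 1, 2 and 3. Of the 8, 4 were highest in tumour 1 and 4 in tumour 3. The summed level of 8 skeletal muscle markers was 4.55 CPM in tumour 1, 45242 CPM in tumour 2 and 19275 CPM in tumour 3. Among these, Myog was at 0 in tumour 1. Across these bulk samples, fewer cells of a type and less RNA per cell cannot be told apart.

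Cells import essential amino acids mainly by exchange and accumulate others with sodium. In heteromeric transporters a light chain of the Slc7 family does the transport, while a heavy chain, Slc3a2 (CD98) or Slc3a1, brings it to the cell surface. Sodium-coupled carriers of the Slc38 and Slc1 families fill the cell with glutamine and small neutral amino acids, which exchangers such as Slc7a5 then trade for leucine and other large ones. Carriers in the lysosome membrane release amino acids from degraded protein, and mTORC1, the kinase complex that drives growth, is switched on there. When amino acids run short, the transcription factor Atf4 raises many transporter genes through C/EBP-ATF response elements in their regulatory DNA.

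Short stretches of promoter are shown for the genes past the filter on low counts, and for the cystine exchanger Slc7a11, whose promoter holds the letters of 1 of 2 elements known from the control of amino acid supply and of lysosomes. The RefSeq windows of build GRCm38.p6 reach 250 bases before and 50 bases after a transcription start, and 42 of the 60 genes had at least 1. Each window was searched on both strands for TGATGNAA, the core of the C/EBP-ATF element, and for CACGTG, the E-box bound by Myc and by lysosomal regulators such as Tfeb. The stretches run 5′ to 3′ on the strand of the gene, from 80 bases before to 20 bases after the start, with the matches in capitals. No match of one overlapped a match of the other. The first 3 hold TGATGNAA on either strand.
Slc7a11 (chr3:50443594-50443693, minus strand): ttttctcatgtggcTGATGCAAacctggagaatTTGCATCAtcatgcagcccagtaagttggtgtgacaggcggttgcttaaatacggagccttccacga
Slc1a4 (chr11:20332694-20332793, minus strand): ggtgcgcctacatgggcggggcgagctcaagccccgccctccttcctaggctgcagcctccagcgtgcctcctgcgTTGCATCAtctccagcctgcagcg
Slc7a7 (chr14:54417925-54418024, minus strand): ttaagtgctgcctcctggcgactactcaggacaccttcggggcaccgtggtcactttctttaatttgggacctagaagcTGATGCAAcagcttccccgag
The other 3 hold CACGTG, which reads the same on both strands.
Slc38a7 (chr8:95853472-95853571, minus strand): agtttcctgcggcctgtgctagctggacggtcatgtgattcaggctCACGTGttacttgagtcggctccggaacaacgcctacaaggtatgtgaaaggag
Slc36a1 (chr11:55204260-55204359, plus strand): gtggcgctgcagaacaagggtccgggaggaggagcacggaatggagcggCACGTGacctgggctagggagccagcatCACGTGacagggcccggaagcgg
Slc43a1 (chr2:84840243-84840342, plus strand): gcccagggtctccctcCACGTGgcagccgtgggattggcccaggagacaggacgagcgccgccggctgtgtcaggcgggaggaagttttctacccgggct

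TGATGNAA was found for 3 of the 42 genes (7.14%), against 4.51% of all 27025 symbols in the table. CACGTG was found for 9 of the 42 (21.4%), against 8.09% of all symbols, and 6 of these 9 genes did not pass the filter on low counts. A match is a description of the letters in this window and does not mark a bound site.

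Of the 60 genes, 50 had a count in at least 1 tumour and 30 passed the filter, which asks in every tumour for about 10 counts at the median depth, so a gene present in 1 tumour alone stays outside it. Those that passed were 3 of 7 Slc1, 1 of 2 Slc3, 4 of 18 Slc6, 9 of 15 Slc7, 2 of 4 Slc36, 8 of 11 Slc38 and all 3 Slc43 genes. Of the 30 genes outside it, 20 had a count. Summed over all 60, the transporters were at 1258, 1064 and 1064 CPM in tumours 1, 2 and 3. These sums depend on the TMM scaling: the plain share of the library total was 0.183% in tumour 1, against 0.0751% and 0.0977% in the others.

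Slc3a2, the heavy chain that most light chains need, was the highest of all 60 per length in every tumour. It lies on chromosome 19 and averaged 283.8 ± 84.1 CPM (SD, n = 3), with 207.5 CPM in tumour 1, 269.9 CPM in tumour 2 and 374.0 CPM in tumour 3. It was lower in tumour 1 than in both others, but higher there than their mean when libraries were scaled by totals (0.23 on the log2 scale). Per kb of its longest transcript it was at 73.8, 96.0 and 133.0 CPM. The other heavy chain, Slc3a1, partner of the kidney cystine carrier Slc7a9, had 26 counts in tumour 1 and 0 in the others. Slc7a9 itself was at 0 throughout, which allows up to 0.0434, 0.373 and 0.191 CPM (3 counts) in tumours 1, 2 and 3.

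Among light chains, Slc7a5 (LAT1), the main importer of leucine and other large neutral amino acids into growing cells, had similar CPM in the 3 tumours while Slc7a8 did not. Slc7a5 averaged 106.9 ± 11.8 CPM (SD, n = 3), with 114.4 CPM in tumour 1, 93.3 CPM in tumour 2 and 112.9 CPM in tumour 3. Its difference of tumour 1 from the mean of the others, 0.16 on the log2 scale, was 1.0 with library totals and −0.01 without tumour 2. Slc7a8 (LAT2), a neutral amino acid exchanger of epithelia with broader substrates, had 11.2 CPM in tumour 1 (95% Poisson interval 10.4 to 12), against 120.9 CPM in tumour 2 (113.4 to 128.8) and 52.6 CPM in tumour 3 (49.0 to 56.3). Tumour 1 lay below both others, with differences of −3.43 and −2.23 on the log2 CPM scale, and tumour 2 lay above tumour 3 by 1.20. Of the counts of the pair, Slc7a8 took 8.89% in tumour 1 (95% Wilson interval 8.31 to 9.50), 56.4% in tumour 2 (54.1 to 58.8) and 31.8% in tumour 3 (30.0 to 33.6). These intervals cover counting error only, and no scaling of the libraries can move such a share.

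Slc7a7 and Slc7a6 export cationic in exchange for neutral amino acids, and per length both stayed below Slc7a5 in every tumour. Slc7a7 had 13.4, 9.82 and 15.5 CPM in tumours 1, 2 and 3, and Slc7a6 8.72, 4.85 and 4.70 CPM. Exons of Slc7a7 overlap those of Oxa1l, which was higher, with 48.7, 59.9 and 50.3 CPM, and the read numbers of Slc7a7 were not whole. Slc7a10, a carrier of small neutral amino acids including D-serine, was apart in tumour 2, with 10.6 CPM (8.44 to 13.1), against 1.89 CPM (1.58 to 2.25) in tumour 1 and 1.91 CPM (1.29 to 2.72) in tumour 3. Its exons overlap those of Lrp3 on the opposite strand, with 12.6 CPM in tumour 2, whereas tumours 1 and 3 had 2.34 and 5.34 CPM of it, and the strand setting of the counting is not given in the sources used here. Its deposited read numbers were not whole. Once a trend on GC content and transcript length was removed, Slc7a10 was no longer 4-fold apart. Slc7a10 is known for expression in white fat, and the 8 adipocyte markers summed to 402.8 CPM in tumour 2, against 453.3 CPM in tumour 1 and 303.0 CPM in tumour 3, with 3 of the 8 highest in tumour 2 and none at 0.

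Slc7a11 (xCT), which imports cystine for glutathione synthesis and whose promoter carries a pair of TGATGNAA matches in opposite orientation, was scarce. It had 59, 5 and 45 counts, or 0.853, 0.621 and 2.86 CPM in tumours 1, 2 and 3, and did not pass the filter. Its deposited read numbers were not whole either. Tumour 3 lay above both others, with an interval of 2.09 to 3.83 CPM that does not overlap theirs (0.649 to 1.10 in tumour 1, 0.202 to 1.45 in tumour 2). The kidney light chains Slc7a13 and Slc7a12 were at 0 and Slc7a15 had 1 count in tumour 1. Per kb, the 6 light chains of Slc3a2 summed to 44.5, 67.2 and 54.3 CPM in tumours 1, 2 and 3, below the heavy chain in each. The ratio of heavy chain to light chains per kb was 1.66, 1.43 and 2.45.

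**Figure D1:**
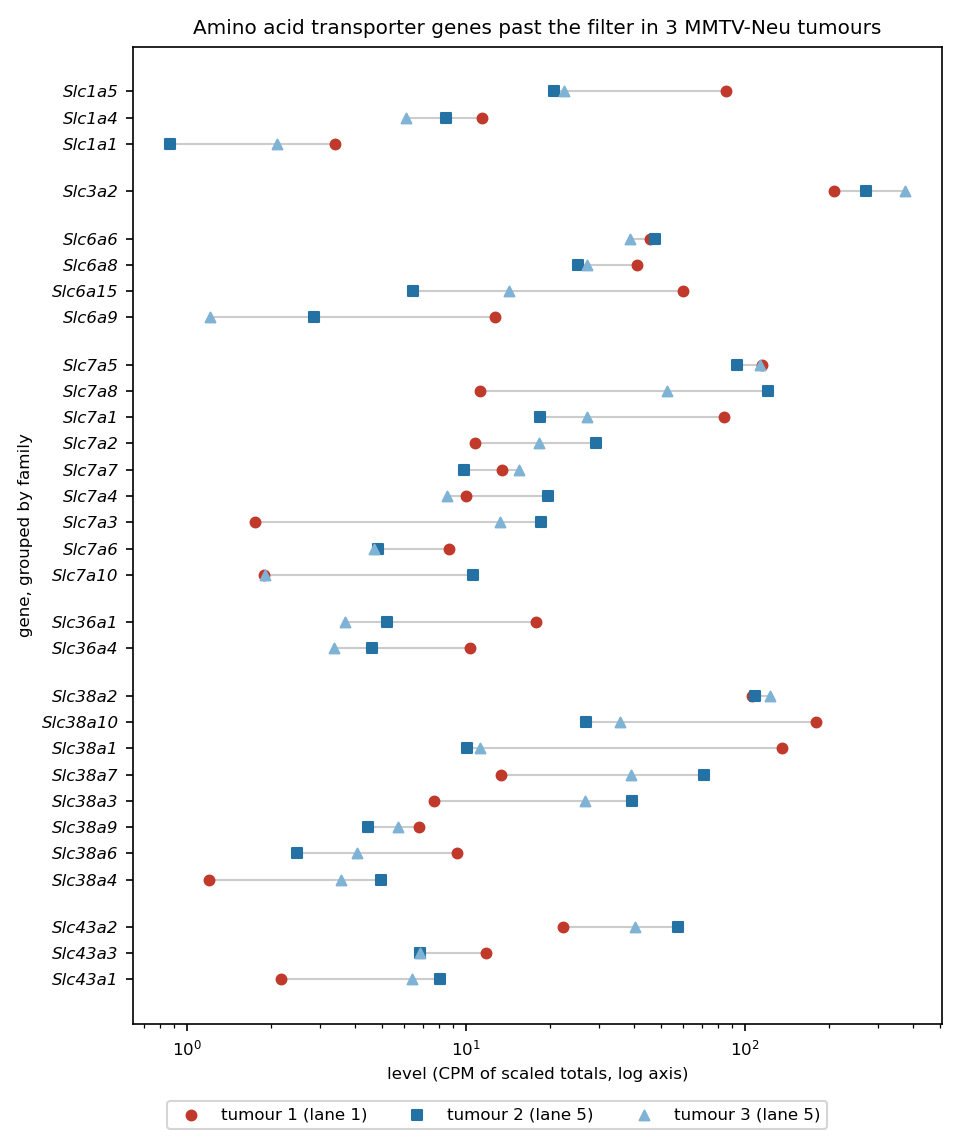
Level of each of the 30 genes past the filter in the 3 tumours (x axis, CPM of scaled totals on a log axis; rows are genes, grouped by family and ordered by mean; 1 point per tumour, the grey line spans the tumours). Slc38a2, Slc7a5 and Slc6a6 have their 3 points closest together, whereas Slc38a1, Slc38a10, Slc7a3 and Slc7a8 spread over more than 4-fold.

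The cationic carriers of the Slc7 family differed in which gene led. Slc7a1, the widespread importer of arginine and lysine, had 83.7 CPM in tumour 1, against 18.4 and 27.1 CPM in tumours 2 and 3. Slc7a2, the carrier of arginine in macrophages, liver and muscle, had 10.8 CPM in tumour 1, against 29.2 and 18.2 CPM. Slc7a3, another arginine carrier, known mainly in brain, had 1.75 CPM in tumour 1 (1.45 to 2.09), against 18.6 CPM in tumour 2 (15.8 to 21.9) and 13.2 CPM in tumour 3 (11.5 to 15.1). Per kb, Slc7a1 made up 85.4% of the summed level of these 3 genes in tumour 1, against 19.6% in tumour 2 and 34.7% in tumour 3. Slc7a3 made up 4.64%, against 52.0% and 44.2%. Tumour 1 thus held its cationic carrier RNA mostly as Slc7a1, while Slc7a3 was the highest of the 3 per length in both other tumours. The related Slc7a4, for which no clear transport is known, had 9.96, 19.6 and 8.58 CPM in tumours 1, 2 and 3.

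In the Slc38 family of sodium-coupled neutral carriers, Slc38a2 had similar CPM in the 3 tumours and its chromosomal neighbours did not. Slc38a2, an importer of alanine, glutamine and other small amino acids that is known to rise when they are short, averaged 112.3 ± 9.0 CPM (SD, n = 3), with 105.6 CPM in tumour 1, 108.7 CPM in tumour 2 and 122.5 CPM in tumour 3. With library totals its difference in tumour 1 was 0.72 instead of −0.13 (log2). Slc38a1, its closest relative and a glutamine importer, had 135.1 CPM in tumour 1 (132.3 to 137.8), against 10.1 CPM in tumour 2 (7.99 to 12.5) and 11.2 CPM in tumour 3 (9.59 to 13.0). With differences of 3.59 and 3.74 (log2 CPM), this was the only one of the 30 genes past the filter at least 8-fold above both other tumours. The genes lie 44.5 kb apart on chromosome 15 (96571418 to 96642913 for Slc38a1, 96687392 to 96699730 for Slc38a2). Slc38a1 took 56.1% of the counts of the pair in tumour 1 (55.4 to 56.9), against 8.47% in tumour 2 (6.87 to 10.4) and 8.37% in tumour 3 (7.26 to 9.63). The other gene of the cluster, Slc38a4, known for liver and placenta and starting 295 kb beyond Slc38a2, went the other way, with 1.20 CPM in tumour 1, against 4.97 and 3.56 CPM.

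Slc38a10 was the second highest transporter per length in tumour 1, with 178.9 CPM, and ranked 13th and 8th in tumours 2 and 3, with 27.0 and 35.5 CPM. The antisense gene Gm11769 overlapping its exons had 40 counts in tumour 1 and 0 in the others, against 12375 counts of Slc38a10 in tumour 1, and the read numbers of Slc38a10 were not whole. Slc38a3, a glutamine and histidine carrier of liver and brain that can run in either direction, had 7.65 CPM in tumour 1, against 39.3 and 26.7 CPM. Slc38a6 had 9.27 CPM in tumour 1, against 2.49 and 4.07 CPM. Slc38a11 and Slc38a8 were at 0 and Slc38a5 had 4 counts in tumour 1. The family as a whole summed to 457.8 CPM in tumour 1, against 268.0 and 248.4 CPM.

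The lysosomal carriers parted as well. Slc38a7, which releases glutamine and asparagine from lysosomes, had 13.3 CPM in tumour 1, against 71.0 and 39.1 CPM. Slc36a1, which moves small amino acids out of lysosomes together with protons, had 17.8 CPM in tumour 1, against 5.22 and 3.69 CPM. Of the summed counts of Slc36a1 and Slc38a7, Slc36a1 had 57.2% in tumour 1 (55.1 to 59.2), against 6.85% in tumour 2 (5.11 to 9.13) and 8.61% in tumour 3 (6.72 to 11). Per kb its share was 45.8% in tumour 1, below that of Slc38a7, against 4.45% and 5.65% in tumours 2 and 3. Both promoters carry CACGTG within the printed stretch. Slc38a9, the arginine sensor that activates mTORC1, was at 6.77, 4.47 and 5.72 CPM in tumours 1, 2 and 3. Slc36a4 had 10.3 CPM in tumour 1, against 4.60 and 3.37 CPM. Its relative Slc36a2, outside the filter, had 213 counts in tumour 1 and 3 in each other tumour, and Slc36a3, in the same cluster on chromosome 11, had 2 counts.

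**Figure D2:**
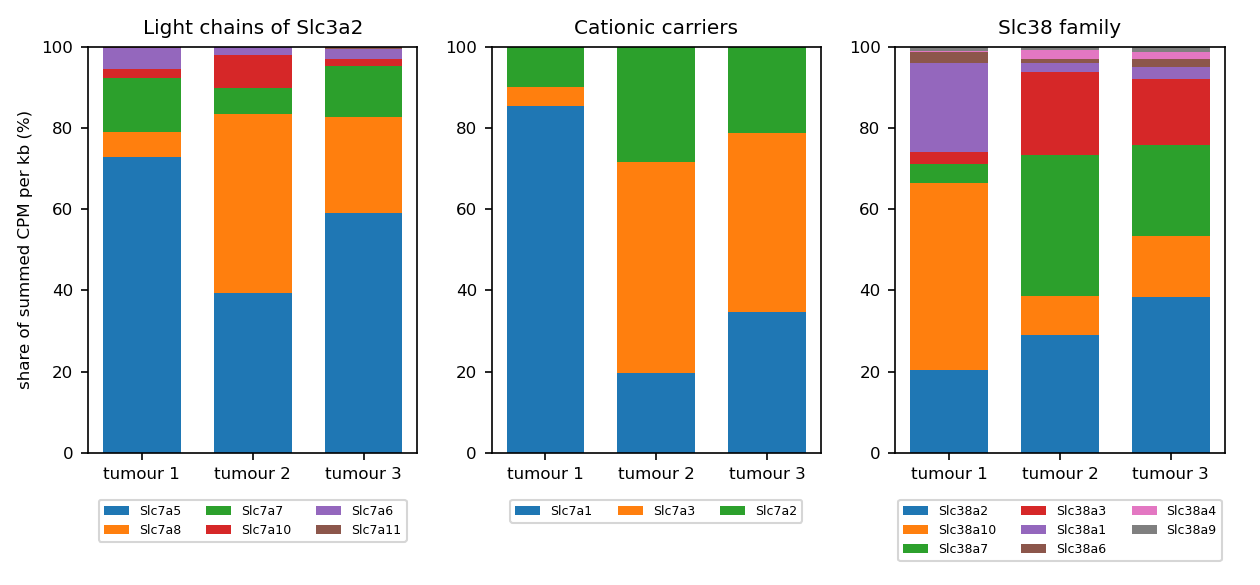
Share of each gene in the summed CPM per kb of its pool (y axis, percent; 1 bar per tumour), for the light chains of Slc3a2, the 3 cationic carriers and the Slc38 family without Slc38a5, which had 4 counts in all. Slc7a5 takes 73.0% of the light chains in tumour 1, against 39.4% in tumour 2 and 59.1% in tumour 3, and Slc38a10 and Slc38a1 take larger parts of the Slc38 bar in tumour 1 than in the others.

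Slc1a5 (ASCT2), an exchanger that brings glutamine into many tumour cells, had 85.0 CPM in tumour 1, against 20.6 CPM in tumour 2 and 22.5 CPM in tumour 3. The difference, 1.91 and 2.04 on the log2 CPM scale, fell just short of 4-fold above the higher of the others. Slc1a5 passed 4-fold with the GC and length trend removed, with library totals, and without tumour 3. Slc1a4, a carrier of alanine, serine and cysteine whose promoter holds TGATGNAA at its start, had 11.4 CPM in tumour 1, against 8.45 and 6.10 CPM. Slc1a1, a carrier of glutamate and cysteine, had 3.40 CPM in tumour 1, against 0.870 and 2.10 CPM. The glial glutamate carriers Slc1a3 and Slc1a2 did not pass the filter, with 177, 8 and 6 counts and 102, 0 and 10 counts in tumours 1, 2 and 3. Slc1a6 was at 0 and Slc1a7 had 1, 2 and 11 counts.

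Of the Slc6 family, Slc6a6, the taurine carrier, averaged 43.8 ± 4.70 CPM (SD, n = 3), with 45.4 CPM in tumour 1, 47.5 CPM in tumour 2 and 38.5 CPM in tumour 3. Slc6a8 had 41.1 CPM in tumour 1, against 25.2 and 27.1 CPM. Slc6a15, a carrier of proline and branched-chain amino acids known mainly in brain, had 59.7 CPM in tumour 1, against 6.46 and 14.2 CPM. Slc6a9, a glycine carrier, had 12.7 CPM in tumour 1 (11.9 to 13.6), against 2.86 CPM (1.81 to 4.29) and 1.21 CPM (0.727 to 1.89). Both were at least 4-fold above each other tumour, Slc6a15 no longer once the GC and length trend was removed. The exons of Slc6a9 overlap B4galt2 and Ccdc24 on the opposite strand, and these 2 genes were lower in tumour 1, with B4galt2 at 19.6 CPM in tumour 1, against 131.9 and 58.4 CPM. The read numbers of Slc6a9 were not whole.

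Outside the filter, Slc6a2, the noradrenaline carrier of sympathetic nerves, had the highest mean CPM of such genes, with 0.304 CPM in tumour 1 (0.188 to 0.464), 2.11 CPM in tumour 2 (1.23 to 3.38) and 7.94 CPM in tumour 3 (6.61 to 9.47). The summed level of 7 nerve and glia markers was 33.0, 28.5 and 17.7 CPM in tumours 1, 2 and 3, with Snap25 at 0 in each, an order opposite to that of Slc6a2. Slc6a14, which carries neutral and cationic amino acids and is known in mammary tumours, had 317, 0 and 13 counts, or 4.58 CPM in tumour 1, at most 0.373 CPM in tumour 2 and 0.826 CPM in tumour 3. The GABA carrier Slc6a11, the glycine carrier Slc6a5 and Slc6a16 were at 0. Slc6a3, Slc6a4, Slc6a7, Slc6a12, Slc6a13, Slc6a17, Slc6a18, Slc6a19 and Slc7a14 had between 0 and 28 counts in each tumour.

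All 3 Slc43 genes passed the filter. Slc43a1 and Slc43a2 let branched-chain amino acids and phenylalanine pass by facilitated diffusion. Slc43a2 had 22.2 CPM in tumour 1, against 57.2 and 40.2 CPM. Slc43a1, with CACGTG in its promoter, had 2.17 CPM in tumour 1, against 8.08 and 6.42 CPM. Slc43a3, 73.0 kb from Slc43a1 on chromosome 2 and a nucleobase carrier, had 11.8 CPM in tumour 1, against 6.84 and 6.86 CPM. The neighbours thus lay on opposite sides, by −1.70 for Slc43a1 and 0.77 for Slc43a3 (log2 CPM of tumour 1 minus the mean of the others). Of Slc7a7 and Slc7a8, 304 kb apart on chromosome 14, Slc7a7 in tumour 1 lay between the other tumours and Slc7a8 below both.

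Tumour 1 stood apart for more of these genes than the other tumours did. At the 4-fold threshold, 4 of 30 genes lay above both other tumours in tumour 1 (13.3%), namely Slc38a1, Slc38a10, Slc6a15 and Slc6a9, against 6.05% of all 12710 genes past the filter. Below both others lay 2 of 30 (6.67%), Slc7a8 and Slc7a3, against 8.21% of all genes. At 2-fold the shares were 9 of 30 above (30.0%, against 22.1% of all genes) and 6 of 30 below, against 20.7% of all genes. Tumour 2 had 1 gene at least 4-fold above, Slc7a10 (3.33%, against 0.252% of all genes), and none below (0.59% of all genes). Tumour 3 had none above or below (0.0787% of all genes in each direction). With a list of 30 genes, such shares rest on few genes. Scaling by library totals alone gave 8 above and 1 below in tumour 1, and under it the median difference of all genes in tumour 1 was 0.95, against 0.11 with TMM scaling (log2). Leaving out tumour 2 gave 7 above and 3 below, and leaving out tumour 3 gave 6 above and 7 below, with Slc38a7, Slc38a3, Slc38a4 and Slc7a10 among the added genes below. The shares of all genes under these alternatives are not given here, so these changes cannot be called particular to the transporters.

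**Figure D3:**
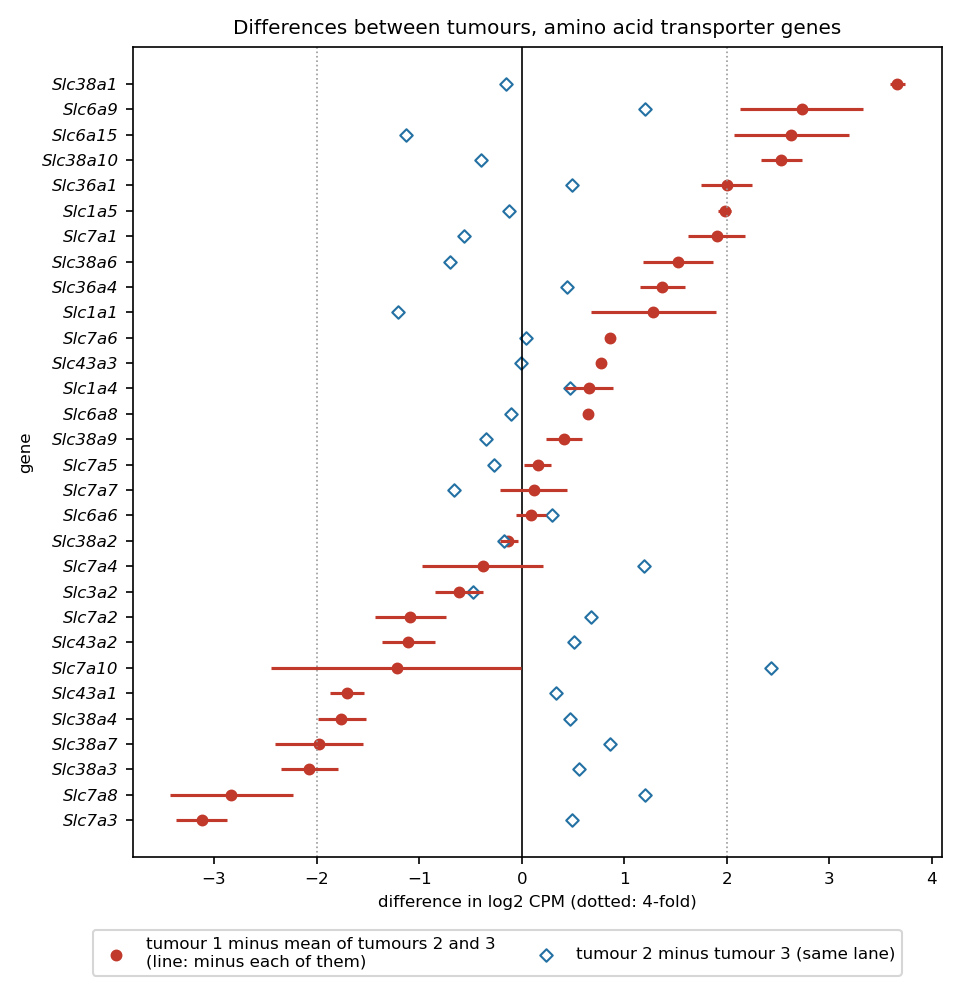
Difference in log2 CPM of tumour 1 from the mean of tumours 2 and 3 for the 30 genes past the filter (filled points; the line joins the differences from each of them), beside the difference of tumour 2 minus tumour 3 within lane 5 (open diamonds). Dotted lines mark 4-fold. Most diamonds lie closer to 0 than the filled points of genes at either end, and Slc7a10 has the largest difference within the lane, 2.43.

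The median absolute difference was 1.33 between tumour 1 and the mean of the others, and 0.48 between tumours 2 and 3 of the same lane, against 1.08 and 0.47 over all genes (log2 CPM). The median SD over the tumours was 0.95 for the 30 genes and 0.72 for all. A range of at least 4-fold was seen in 12 of 30 (40.0%, against 29.5% of all genes), and one under 2-fold in 10 of 30 (33.3%, against 34.4%). Across the 30 genes, which share libraries and depth, log2 CPM correlated with r = 0.92 between tumours 2 and 3, 0.51 between tumours 1 and 2, and 0.68 between tumours 1 and 3, against 0.95, 0.65 and 0.75 over all genes.

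Marker sums of some other cell types were also lower in tumour 1. Of 11 transporters lowest in tumour 1, 9 (81.8%) were higher in tumour 2 than in tumour 3, and so were 71.1% of all genes lowest in tumour 1. The 7 endothelial markers summed to 180.2 CPM in tumour 1, 1318 CPM in tumour 2 and 491.7 CPM in tumour 3. All 7 were highest in tumour 2 and none was at 0. Pecam1 alone had 56.4, 774.9 and 231.2 CPM in tumours 1, 2 and 3, while Kdr and Tek were lowest in tumour 3. The muscle sums given above keep the order of the endothelial sums, with 7 of 8 markers highest in tumour 2. The 9 transporters are Slc7a8, Slc7a3, Slc38a3, Slc38a7, Slc7a2, Slc43a1, Slc43a2, Slc38a4 and Slc7a10, the last only just lower in tumour 1 than in tumour 3. They follow the order of the endothelial and muscle sums, which the macrophage and T cell sums below have too. The part of any of these cells in the values of the transporters was not tested. The 8 macrophage markers summed to 933.8, 3347 and 2201 CPM in tumours 1, 2 and 3, of which C1qa alone had 160.8, 2426 and 1369 CPM, while Lyz2, Adgre1 and Cd68 were highest in tumour 1. The 6 T cell markers, of which 2 passed the filter, summed to 2.56, 10.1 and 8.07 CPM in tumours 1, 2 and 3. Cd4 alone had 0.824, 7.21 and 3.62 CPM, while Cd8a was highest in tumour 1 and Cd3g lowest in tumour 3. Other sums had other orders: fibroblast markers were at 3989, 6462 and 3483 CPM, and the adipocyte and nerve sums given above were highest in tumour 1. On the other side, 6 basal epithelial markers, 5 of them highest in tumour 1, summed to 774.3 CPM in tumour 1, against 416.1 and 297.8 CPM in tumours 2 and 3. Acta2 alone had 262.7, 370.5 and 244.6 CPM in tumours 1, 2 and 3 and made up most of the sums in tumours 2 and 3. Of the other 5, Krt14 had 106.9, 12.4 and 6.74 CPM. These markers stand beside the genes high in tumour 1, where their part was not tested either. The transporters highest in tumour 1 had a median longest transcript of 3926 bases and those lowest 3927 bases, whereas over all genes these medians were 3828 and 2874 bases. The median GC contents of these transporters were 49.9 and 52.8%, against 48.0 and 52.8% over all genes highest and lowest in tumour 1.

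Genes listed for Atf4 and the amino acid response were apart in tumour 1 about as often as all genes. The 24 genes, with the kinase genes Eif2ak1 to Eif2ak4 among them, all passed the filter. Of the 24, 1 lay at least 4-fold above both others in tumour 1, against 6.05% of all genes, and 2 lay below, against 8.21%. The median difference of tumour 1 was 0.37, against 0.11 over all genes (log2 CPM). Atf4 itself had 279.4, 272.6 and 391.4 CPM in tumours 1, 2 and 3, the highest value being in tumour 3. Cebpb, a partner of Atf4, had 196.0 CPM in tumour 1, against 435.2 and 525.3 CPM. The lipoprotein receptor gene Vldlr was apart at 44.2 CPM in tumour 1, against 10.6 and 8.58 CPM, and the stress factor Ddit3 and the mitochondrial serine enzyme Shmt2 were apart below, with 4.96 CPM, against 30.6 and 28.0 CPM, and 71.9 CPM, against 398.8 and 396.5 CPM.

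Enzymes that use glutamine and glutamate had 3 of 14 genes at least 4-fold above both others in tumour 1 (6.05% of all genes) and none below (8.21% of all genes), with a median difference of 0.51. The 3 were Oat, which links ornithine and glutamate, with 203.1 CPM in tumour 1, against 11.2 and 13.9 CPM, and both subunit genes of the first enzyme of glutathione synthesis, Gclm with 53.0 CPM, against 8.08 and 10.1 CPM, and Gclc with 29.0 CPM, against 5.10 and 5.53 CPM. The aminotransferase Got2 went the other way, with 92.2 CPM in tumour 1, against 277.0 and 236.4 CPM. Glutamine synthetase, Glul, was at 123.9, 120.2 and 94.1 CPM in tumours 1, 2 and 3.

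In the list of mTORC1 and its amino acid sensors, 3 of 30 genes lay at least 4-fold above in tumour 1 (6.05% of all genes) and 2 below (8.21% of all genes), with a median difference of 0.34. Rheb, the small GTPase that activates mTORC1, had 77.7 CPM in tumour 1, against 4.10 and 9.28 CPM, Rptor 53.7 CPM, against 6.34 and 10.4 CPM, and Mtor 33.0 CPM, against 6.09 and 7.44 CPM. Of the Ragulator scaffold, Lamtor4 had 57.5 CPM in tumour 1, against 797.5 and 414.2 CPM, and Lamtor1 75.0 CPM, against 222.6 and 211.3 CPM. Rragd, one of the Rag GTPases, had 0.997 CPM in tumour 1, against 7.95 and 6.99 CPM.

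**Figure D4:**
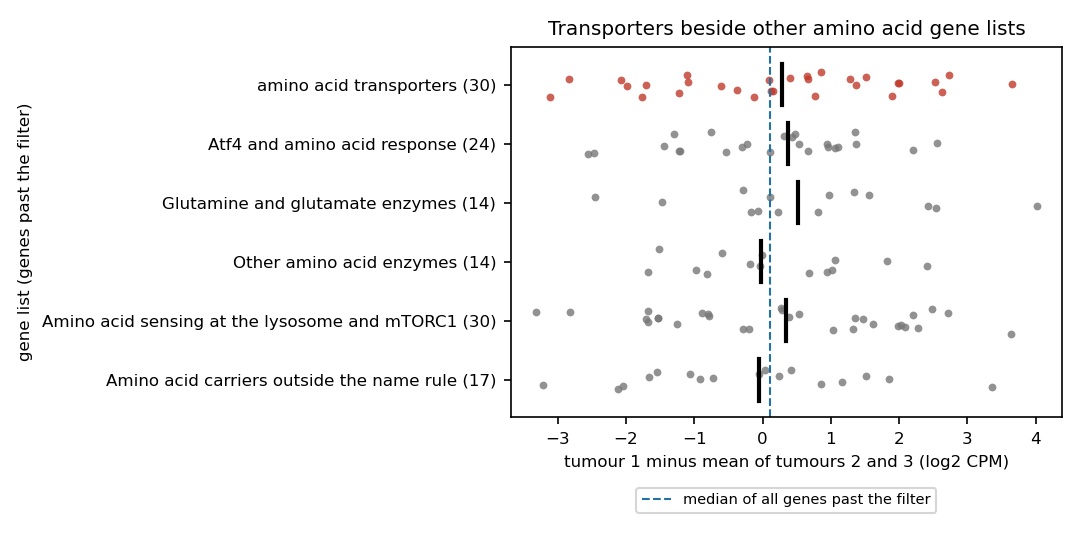
Difference of tumour 1 from the mean of tumours 2 and 3 (x axis, log2 CPM) for each gene past the filter of the transporters (red) and of 5 other lists (grey); points are scattered vertically only to be visible, black bars are list medians, and the dashed line is the median of all genes past the filter. The medians lie between −0.05 and 0.51.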

How the data were processed

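RNA from 3 tumours was made into libraries with the Illumina TruSeq mRNA kit and read as 50-base pairs, per the labels' protocols. The deposited values, 1 for each gene symbol, are estimated counts as Salmon writes them (NumReads, per the file headers), and were not normalized. STAR, SAMtools, Picard and build mm10 also stand in the submitters' processing notes. For versions, annotation and strand setting the sources used here give nothing.

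Counts were rounded. Genes were kept by filterByExpr of edgeR 4.0.16 in R 4.3.3 (minimum count 10, minimum total 15), which left 12710 genes. Library totals were scaled by TMM factors of 1.48, 0.722 and 0.936, and log2 CPM used a prior count of 2. A gene is apart in a tumour at a log2 CPM at least 2 above or below both others. Positions, lengths and GC contents came from GENCODE M21 (GRCm38), where all 60 genes were matched. Read numbers of 7 members (Slc3a1, Slc6a9, Slc7a7, Slc7a10, Slc7a11, Slc38a6 and Slc38a10) were not whole (beyond 0.01), as where reads are divided between sequences, and exons of 12 overlap another gene.

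The named genes are the 4 highest and the most variable kept members of each family, all kept members 4-fold apart, every heteromer chain with a count, the 5 highest members outside the filter, and those at 0. Of other lists they are the 2 highest genes and those apart. Of the genes this rule takes, 2 are not reported here. Genes named beyond this were chosen after their values were seen, as were the pools whose shares are given and the motifs. The members and lists were chosen with earlier results of these data known. Alternatives were scaling by totals and by DESeq2 1.42.0 size factors, other filters, prior counts and thresholds, removal of a GC and length trend, and leaving out each tumour.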

Additional observations from a re-analysis of the deposited data

How the results depend on the processing

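The number of transporters at least 4-fold above in tumour 1, 4, became 8 with library totals, 9 at 2-fold, 1 at 8-fold and 7 with no filter, and 6 to 7 with tumour 3 or tumour 2 left out. Below in tumour 1, the 2 genes became 1 with library totals, 6 at 2-fold and 0 at 8-fold, and 3 to 7 with a tumour left out. The 1 gene apart in tumour 2 became 0 with library totals, with the GC and length trend removed and at 8-fold, 2 with a mean CPM of at least 1, 4 at 2-fold or with no filter, and 1 to 13 with a tumour left out. In tumour 3 the count of 0 became 1 at 2-fold and 1 to 10 with a tumour left out, where 1 other tumour replaces both. The median SD of 0.95 was 0.33 without tumour 1 and 0.96 to 1.01 without another, and the median difference of tumour 1, 0.29, was 1.13 with library totals, 0.19 with DESeq2 size factors and 0.20 to 0.43 without tumour 2 or 3. The cause of these changes was not tested. Shares of all genes are given here only for TMM scaling with all tumours, at 4-fold and, in tumour 1, at 2-fold. The other counts therefore cannot be called particular to the transporters. Removing the GC and length trend took Slc6a15 from the genes above and added Slc1a5, and added Slc38a4 below. DESeq2 size factors and prior counts of 0.5 and 10 left all 4 counts as they were. Of 30 single genes, 27 kept the sign of their tumour 1 difference with library totals and 29 with DESeq2 size factors. Slc38a2, Slc7a4 and Slc3a2 turned to higher in tumour 1 with library totals (0.72, 0.46 and 0.23), and Slc6a6 turned to −0.01 with DESeq2 size factors. Depth limits the genes outside the filter most in tumour 2, where 3 counts are 0.373 CPM.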

Other observations

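Carriers of amino acids and peptides outside the 7 families were listed together with some partner proteins. Of 17 past the filter, 1 lay at least 4-fold above both others in tumour 1 (6.05% of all genes did) and 1 below (8.21% of all genes), with a median difference of −0.05. They belong to 1 family of peptide and histidine transporters. Slc15a2, a peptide carrier of the cell surface, had 62.3 CPM in tumour 1, against 4.10 and 8.77 CPM in tumours 2 and 3, while the lysosomal Slc15a3, known in macrophages and other immune cells, had 9.53 CPM in tumour 1, against 73.6 and 106.3 CPM. Bsg, a chaperone of transporters, was the highest of the list, with 375.0 CPM in tumour 1, against 1256 and 951.5 CPM. The mitochondrial carrier gene Slc25a39 came next, with 170.6 CPM in tumour 1, against 331.0 and 312.9 CPM.

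Of 14 other enzymes of amino acid metabolism past the filter, 1, Cth, lay at least 4-fold above both others in tumour 1. The share of all genes was 6.05%. None lay below, against 8.21% of all genes. Cth, which makes cysteine from cystathionine, had 5.93 CPM in tumour 1, against 0.994 and 1.14 CPM. Odc1, the first enzyme of polyamine synthesis, was at 100.6, 99.7 and 106.5 CPM in tumours 1, 2 and 3.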
